A study of Mus musculus with 8 samples.

Results

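The comparison described here is hepatocyte deletion of Atf4 in vehicle-treated neonatal mice. It set 2 libraries of hUGT1/Atf4ΔHep livers given vehicle against 2 libraries of hUGT1/Atf4F/F livers given vehicle, 4 of the 8 libraries in the series, and addressed what hepatocyte ATF4 does in the neonatal liver when no triclosan (TCS) is given. The other 4 libraries came from the same genotypes after TCS, an antimicrobial agent. Of the 24411 genes in the count table, 13633 had enough counts to be tested, all fitted and adjusted together. All mice were C57BL/6 and carried the human UGT1 locus on a Ugt1-null background (hUGT1). In hUGT1/Atf4ΔHep mice the floxed Atf4 gene was deleted by Cre recombinase driven by the albumin promoter, which is active in hepatocytes. Whether all other cells of the liver kept the gene cannot be seen in these data. The hUGT1/Atf4F/F mice carried the same floxed alleles. The methods name no Cre for them, so the deletion and the presence of Cre cannot be told apart. Each library held RNA of 2 pooled mice, 4 mice per group, and the p-values given here measure the spread between such pools. The pups were 10 days old at the first of 4 daily doses in one account of the experiment, whereas the account of the RNA sequencing gives an age of 14 days. Male and female pups were used.

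ATF4 is a basic leucine zipper (bZIP) transcription factor and the main effector of the integrated stress response. Kinases that sense endoplasmic reticulum (ER) stress, amino acid shortage, viral RNA or heme shortage phosphorylate the translation factor eIF2α, which lowers protein synthesis in general but favours translation of the Atf4 message. ATF4 then binds, often together with a C/EBP protein, to C/EBP-ATF response elements in genes for amino acid synthesis and uptake, tRNA charging and stress signalling. In the liver its known targets include asparagine synthetase and the circulating hormone FGF21.

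Deposited read counts summed to 16044025 and 15272763 per library in the hUGT1/Atf4ΔHep vehicle group and to 19815967 and 15388192 in the hUGT1/Atf4F/F vehicle group. Levels are given below as CPM, reads per 1e+06 reads counted, in the order of replicates 1 and 2. Albumin (Alb) stood at 114310.0 and 122765 CPM in hUGT1/Atf4ΔHep livers, against 119717 and 124268 CPM in hUGT1/Atf4F/F livers, so all 4 libraries carried the defining hepatocyte marker at a like level. The pools differed in sex. Xist, the RNA of the inactive X chromosome, stood at 778 and 4.50 CPM in hUGT1/Atf4ΔHep livers, against 23.2 and 1.05 CPM in hUGT1/Atf4F/F livers, and the summed level of 4 Y-linked genes was 80.7 and 163 CPM against 175 and 179 CPM. Replicate 1 of the hUGT1/Atf4ΔHep group thus carried RNA marking both sexes, and the other 3 vehicle pools had little Xist. Genes of striated muscle and stomach, which a liver sample should lack, were also uneven. The summed level of 12 striated muscle genes was 33.7 and 14.2 CPM in hUGT1/Atf4ΔHep livers and 634 and 97.9 CPM in hUGT1/Atf4F/F livers, and that of 8 stomach mucosa genes was 11.7 and 2.32 CPM against 223 and 1.12 CPM. Replicate 1 of the hUGT1/Atf4F/F group thus stood apart, and several values below are also given without it. These 2 lists were drawn up after the values had been seen.

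**Figure D1:**
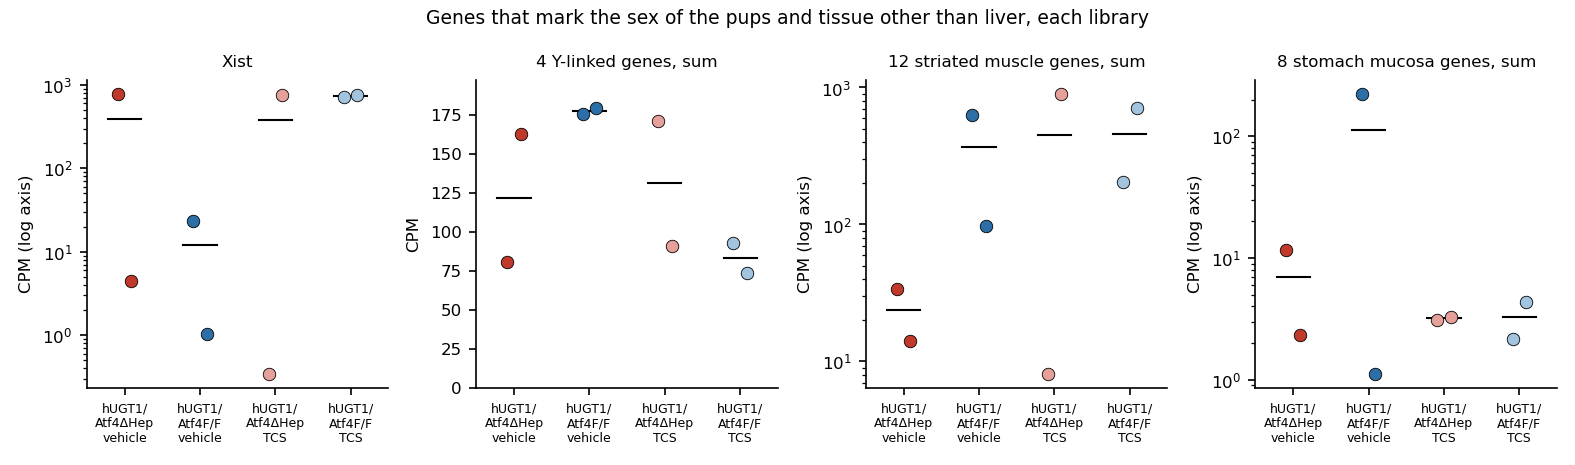
Levels in CPM of Xist, of 4 Y-linked genes summed, of 12 striated muscle genes summed and of 8 stomach mucosa genes summed in each of the 8 libraries, with log axes where marked; each point is a library of 2 pooled mice and each line a group mean. Xist was 778 CPM in replicate 1 of the hUGT1/Atf4ΔHep vehicle group and at most 23.2 CPM in the other 3 vehicle libraries, and stomach mucosa genes were high only in replicate 1 of the hUGT1/Atf4F/F vehicle group.

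Deletion left a liver with 3 genes past the threshold of adjusted p under 0.05 (edgeR's quasi-likelihood test with Benjamini-Hochberg adjustment over 13633 genes), 0.022% of the genes tested: 1 rose (0.00734%) and 2 fell (0.0147%). DESeq2 called 5 (0.0367%). Atf4 itself fell. It stood at 18.5 and 19.7 CPM in hUGT1/Atf4ΔHep livers, against 59.5 and 62.8 CPM in hUGT1/Atf4F/F livers, from 297 and 298 reads against 1173 and 957 reads. The groups lay far apart with little spread within each. The level in hUGT1/Atf4F/F livers was 3.20 times that in hUGT1/Atf4ΔHep livers, a log2 fold change of -1.68 (SE 0.08, 95% confidence interval -1.85 to -1.50, adjusted p = 5.28e-05 by edgeR's quasi-likelihood test). The counts cover the whole gene, and in bulk liver fewer cells with the transcript and less of it per cell cannot be told apart, nor can transcript left in hepatocytes be told apart from that of other liver cells.

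The other 2 genes past the threshold lie beside Atf4 on chromosome 15 (mm10). Atf4 occupies chr15:80255184-80257541 on the plus strand. Rps19bp1, which encodes a ribosomal protein S19 binding protein also known as active regulator of SIRT1, lies 3.07 kb beyond the end of Atf4 on the minus strand, at chr15:80260615-80264315. It stood at 3.05 and 2.38 CPM in hUGT1/Atf4ΔHep livers, against 11.5 and 10.6 CPM in hUGT1/Atf4F/F livers. All hUGT1/Atf4ΔHep libraries were below all hUGT1/Atf4F/F libraries, and Rps19bp1 fell, with a log2 fold change of -2.02 and a standard error of 0.21 (adjusted p = 0.0241 by edgeR's quasi-likelihood test), so that the hUGT1/Atf4F/F level was 4.06 times the hUGT1/Atf4ΔHep level. Its call was lost when any of 4 libraries was left out, with an adjusted p of 0.277 and 0.595 in edgeR's quasi-likelihood test without replicate 1 or 2 of hUGT1/Atf4ΔHep vehicle, 0.334 without replicate 1 of hUGT1/Atf4F/F vehicle and 0.0517 without replicate 1 of hUGT1/Atf4F/F TCS. Its log2 fold change stayed below 0 in each of these fits.

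Cacna1i, at chr15:80287238-80398279 on the plus strand and 29.7 kb beyond Atf4, encodes a pore-forming subunit of T-type calcium channels best known from neurons. It stood at 94.3 and 90.0 CPM in hUGT1/Atf4ΔHep livers, from 1514 and 1360 reads, against 1.83 and 0.656 CPM in hUGT1/Atf4F/F livers, from 36 and 10 reads. The gene was thus near the limit of detection in the floxed livers and clearly expressed, by count, in both deleted ones. Cacna1i rose, with a log2 fold change of 6.14 (standard error 0.29, 95% confidence interval 5.47 to 6.80, adjusted p = 5.28e-05 by edgeR's quasi-likelihood test), or 70.4-fold. Counts per gene do not show where within Cacna1i its reads lay, and whether strand was used in counting is not given in the sources used here.

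No other neighbour of Atf4 passed the adjusted threshold. Mief1, a mitochondrial fission factor whose gene ends 1.81 kb before Atf4 on the same strand, stood at 19.5 and 20.7 CPM in hUGT1/Atf4ΔHep livers and 24.5 and 23.6 CPM in hUGT1/Atf4F/F livers. The deleted livers were lower without overlap, but the log2 fold change of -0.26 (SE 0.10) did not pass the adjusted threshold. Tab1, a partner of the kinase TAK1, differed by -0.13 on the log2 scale (SE 0.16). Syngr1 (-0.74, SE 0.59), Mgat3 (0.84, SE 0.60) and Grap2 (-0.07, SE 0.33) did not pass either, and Snord43, Enthd1 and Mir6957 had at most 1 read in any vehicle library and were not tested. Over the 2 Mb on each side of Atf4, 78 other genes were tested. Of these, 5 had an unadjusted p under 0.05 (Lgals1, Mief1, Chadl, Tef and Phf5a), where 2.79% of all genes tested did. The log2 fold changes of the 78 ranged from -0.74 to 1.05 with a median of -0.03. Within the genes tested, the sizes of change seen for Atf4, Rps19bp1 and Cacna1i thus had no counterpart in the surrounding region.

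**Figure D2:**
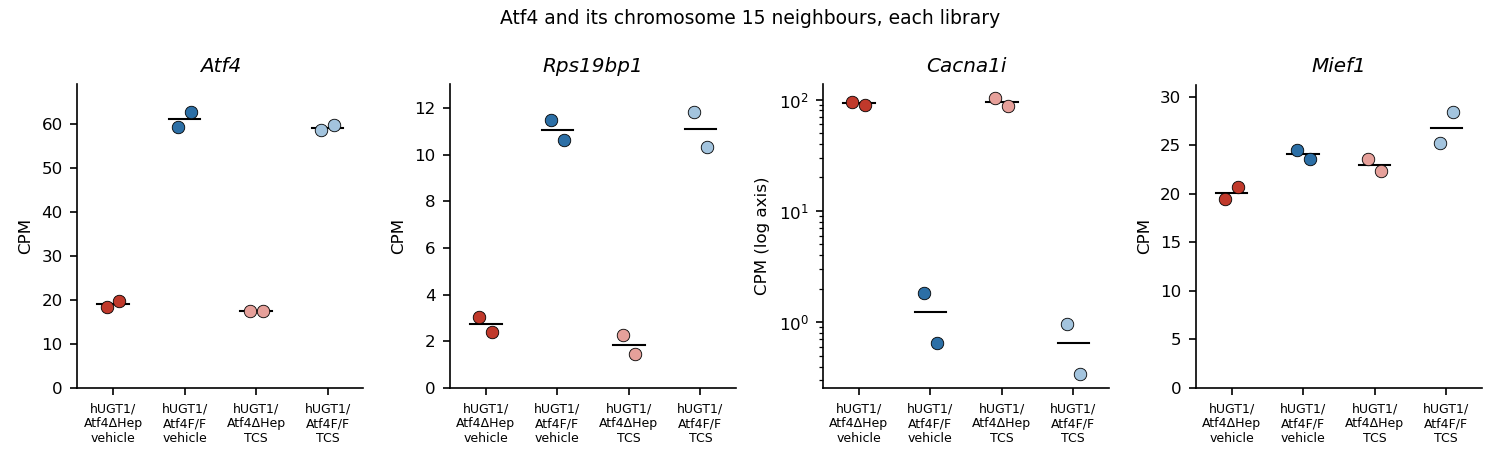
Levels in CPM of Atf4, Rps19bp1, Cacna1i (log axis) and Mief1 in the 4 vehicle and 4 TCS libraries; each point is a library of 2 pooled mice and each line a group mean. Atf4 and Rps19bp1 were lower and Cacna1i was higher in hUGT1/Atf4ΔHep livers under both treatments.

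Sequences are shown for promoters of program genes, because the core of the C/EBP-ATF response element can be read in them directly. The window searched in each promoter ran from 250 bases before to 50 bases after the RefSeq start site (GRCm38.p6), for TGATGNAA or its reverse TTNCATCA. Of 63 genes of the ATF4 program, 51 had a promoter in the RefSeq table used and 17 of these (33.3%) held the motif, against 1219 of 27025 gene symbols overall (4.51%). Capitals mark the motif in the windows below, each written on the strand of its gene.
Asns: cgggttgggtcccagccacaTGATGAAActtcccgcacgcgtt
Pycr1: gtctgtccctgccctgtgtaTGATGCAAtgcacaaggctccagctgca
Nupr1: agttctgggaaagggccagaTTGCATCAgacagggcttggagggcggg
Fgf21: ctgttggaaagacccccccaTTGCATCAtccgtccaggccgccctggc
Chac1: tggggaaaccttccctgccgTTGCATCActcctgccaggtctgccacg
Atf3: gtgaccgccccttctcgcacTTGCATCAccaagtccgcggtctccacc
The Asns window lies at chr6:7693210-7693252 (minus strand), with the motif 23 bases before the start site. Those of Pycr1 (chr11:120643824-120643871, minus), Nupr1 (chr7:126625553-126625600, minus) and Fgf21 (chr7:45615602-45615649, minus) hold it 103, 110 and 139 bases before the start. Chac1 (chr2:119351029-119351076, plus) and Atf3 (chr1:191183416-191183463, minus) hold it 193 and 110 bases before the start. The promoters of Atf4, Rps19bp1 and Cacna1i held no match. A match describes letters only and is no evidence of binding. Among program genes tested, 14 of 16 with the motif had log2 fold changes below 0 (median -0.17), against 20 of 34 without it (median -0.04). At unadjusted p under 0.05 were 2 of the 16 and 3 of the 34, where 2.79% of all genes tested were. None of the autophagy genes with a promoter held it, and the autophagy list had a median of 0.02. Whether the motif bears on the difference was not tested. Levels of the program genes follow.

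As a group, the genes of the ATF4 program had slightly lower levels in the deleted livers than in the floxed ones, most visibly those for amino acid synthesis. Those for tRNA charging were lower too, but their median was -0.01 without replicate 1 of hUGT1/Atf4F/F. No program gene passed the adjusted threshold with edgeR's quasi-likelihood test, limma-voom or DESeq2. Beyond the 3 genes called, the smallest adjusted p of any gene was 0.659 (Aen) and the next 1.00, so the differences of the genes named below are given with their standard errors and are not calls. Of 63 genes, 61 were tested and 41 had log2 fold changes below 0, where 50.5% of all genes tested did and 49.5% lay above. An unadjusted p under 0.05 with a lower level was found for 6 of the 61, where 1.49% of all genes met it, and with a higher level for none, where 1.3% did. The groups did not overlap for 19 genes that were lower, where 14.9% of all genes tested were, and for 3 that were higher, where 15.3% were. The median log2 fold change of the program was -0.11, beside -0.0016 for all genes tested. The 2 program genes with too few counts to test were Aldh1l2, with 7 and 3 reads in hUGT1/Atf4ΔHep livers and 19 and 5 reads in hUGT1/Atf4F/F livers, and Slc7a11, the cystine transporter, which had no read in any vehicle library.

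Among the groups of the ATF4 program, enzymes of amino acid synthesis had the lowest median, with 9 of 10 genes below and a median of -0.31 (-0.38 to -0.24 when each vehicle library was left out). Asns, which makes asparagine, stood at 2.31 and 1.85 CPM in hUGT1/Atf4ΔHep livers and 4.61 and 5.65 CPM in hUGT1/Atf4F/F livers. Both deleted livers lay well below both floxed ones, with a log2 fold change of -1.29 (SE 0.32). Psat1, of the serine pathway, stood at 4.92 and 4.63 CPM against 6.13 and 7.16 CPM, again without overlap (-0.47, SE 0.17). Phgdh, the first enzyme of that pathway, was at 1.06 and 1.12 CPM in hUGT1/Atf4ΔHep livers and 1.88 and 1.31 CPM in hUGT1/Atf4F/F livers, and Psph, the last, was at 3.86 and 3.71 CPM against 4.06 and 5.58 CPM. Their groups did not overlap, but the spread within them was wide for the size of the difference (Phgdh -0.57, SE 0.42; Psph -0.33, SE 0.29), and without replicate 1 of hUGT1/Atf4F/F the difference in Phgdh was -0.27. The proline enzymes Pycr1 and Aldh18a1 followed the same pattern. Pycr1 was barely detected, at 0.187 and 0.199 CPM in hUGT1/Atf4ΔHep livers and 0.254 and 0.788 CPM in hUGT1/Atf4F/F livers (-1.31, SE 0.83), and Aldh18a1 stood at 3.49 and 3.31 CPM against 3.70 and 4.66 CPM (-0.29, SE 0.21).

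Of 13 aminoacyl-tRNA synthetases, which load amino acids onto tRNAs, 12 had log2 fold changes below 0, with a median of -0.15 (-0.25 to -0.01 when each vehicle library was left out). The -0.01 was the median without replicate 1 of hUGT1/Atf4F/F. Mars, the methionine enzyme, stood at 39.2 and 33.6 CPM in hUGT1/Atf4ΔHep livers and 54.4 and 46.0 CPM in hUGT1/Atf4F/F livers. Cars, the cysteine enzyme, stood at 24.0 and 20.1 CPM against 33.6 and 27.6 CPM. Both were lower in the deleted livers without overlap, with log2 fold changes of -0.46 (SE 0.11) for Mars and -0.48 (SE 0.14) for Cars. Without replicate 1 of hUGT1/Atf4F/F these were -0.34 for Mars and -0.33 for Cars. Gars, at 42.1 and 43.1 CPM against 48.5 and 46.2 CPM, and Nars, at 72.3 and 69.1 CPM against 84.0 and 73.1 CPM, each differed by only -0.15. Without that replicate the difference was -0.12 for Gars and -0.05 for Nars. The tRNA enzymes were thus well expressed in both genotypes, and the differences were a fraction of the level.

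**Figure D3:**
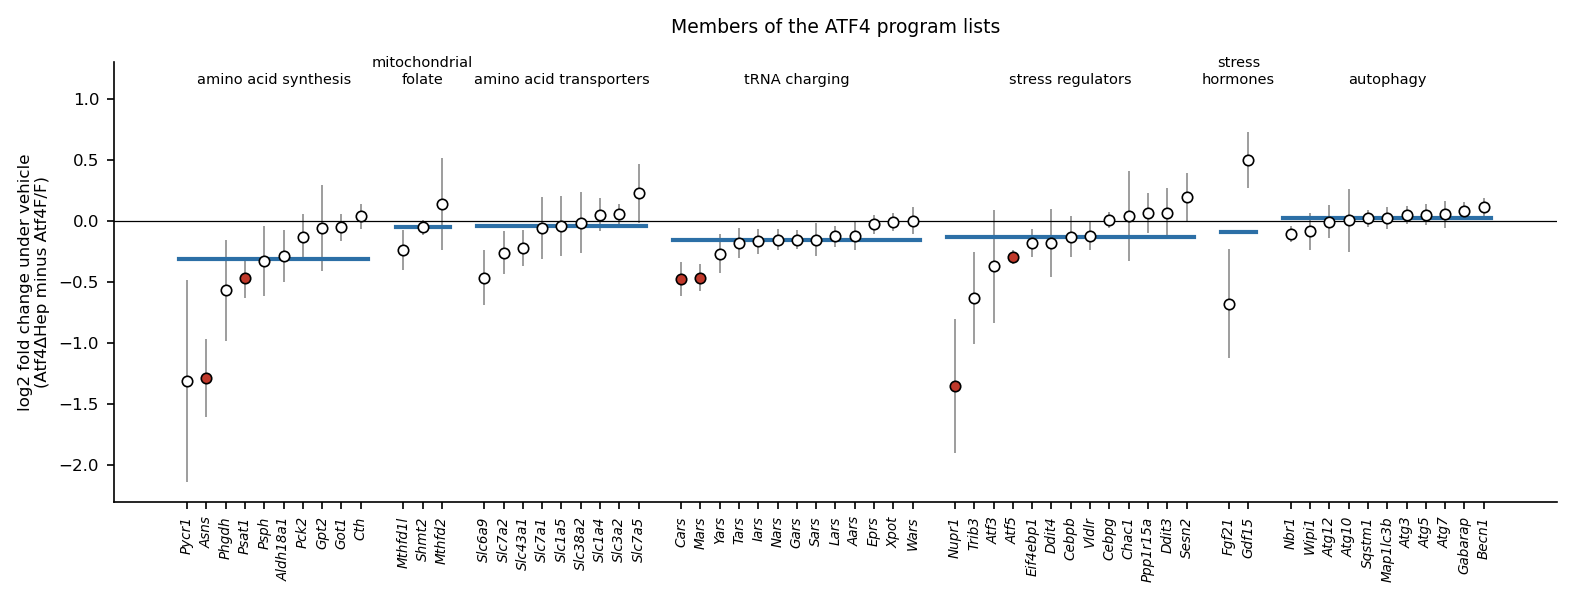
Log2 fold changes (hUGT1/Atf4ΔHep vehicle over hUGT1/Atf4F/F vehicle) of the tested genes of the ATF4 program, grouped by role, from edgeR's fit; grey bars are standard errors, blue lines group medians, and red points genes with unadjusted p under 0.05. Most genes of amino acid synthesis and tRNA charging lay below 0, with Asns at -1.29, whereas autophagy genes lay around 0.

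Among 13 regulators of the stress response, 8 lay below 0 with a median of -0.13. Atf5, a bZIP factor of the same subfamily, was abundant and even. It stood at 472 and 476 CPM in hUGT1/Atf4ΔHep livers and 595 and 567 CPM in hUGT1/Atf4F/F livers, a gap several times the spread within each genotype (-0.29, SE 0.06). Nupr1, a small stress-induced chromatin protein, stood at 0.935 and 0.463 CPM against 2.38 and 1.12 CPM, without overlap but with a wide spread (-1.35, SE 0.55), and without replicate 1 of hUGT1/Atf4F/F the difference was -0.66. Trib3, a pseudokinase that inhibits AKT, was at 2.49 and 1.79 CPM in hUGT1/Atf4ΔHep livers and 3.65 and 2.95 CPM in hUGT1/Atf4F/F livers (-0.63, SE 0.38). Ddit3, which encodes CHOP, stood at 5.05 and 4.17 CPM in hUGT1/Atf4ΔHep livers and 4.82 and 3.94 CPM in hUGT1/Atf4F/F livers. The values overlapped and the log2 fold change was 0.07 (SE 0.21). The glutathione-degrading enzyme Chac1 was at 2.49 and 1.46 CPM against 1.67 and 2.23 CPM and Atf3 at 0.748 and 1.72 CPM against 1.27 and 1.97 CPM, also overlapping. Ddit3, Chac1 and Atf3 changed sign when single vehicle libraries were left out, so they have no stable direction here.

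The 2 secreted stress hormones lay on opposite sides of 0. Fgf21 stood at 0.561 and 0.794 CPM in hUGT1/Atf4ΔHep livers and 1.22 and 0.919 CPM in hUGT1/Atf4F/F livers (-0.68, SE 0.45), whereas Gdf15 stood at 4.30 and 3.37 CPM against 2.69 and 2.76 CPM (0.50, SE 0.23). Neither passed the test. Of 9 amino acid transporters tested, 6 were below 0 with a median of -0.04, and the glycine transporter Slc6a9, at 7.48 and 7.81 CPM against 11.3 and 9.72 CPM, had the largest difference for its error (-0.46, SE 0.22). The heavy chain Slc3a2 stood at 46.0 and 42.6 CPM against 42.6 and 42.4 CPM and the leucine transporter Slc7a5 at 7.16 and 5.10 CPM against 4.56 and 6.04 CPM, with overlap. The mitochondrial folate enzyme Shmt2 overlapped at 277 and 259 CPM in hUGT1/Atf4ΔHep livers and 280.5 and 275 CPM in hUGT1/Atf4F/F livers. Of 11 autophagy genes that ATF4 is known to induce, 8 lay above 0 with a median of 0.02 and none had an unadjusted p under 0.05.

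**Figure D4:**
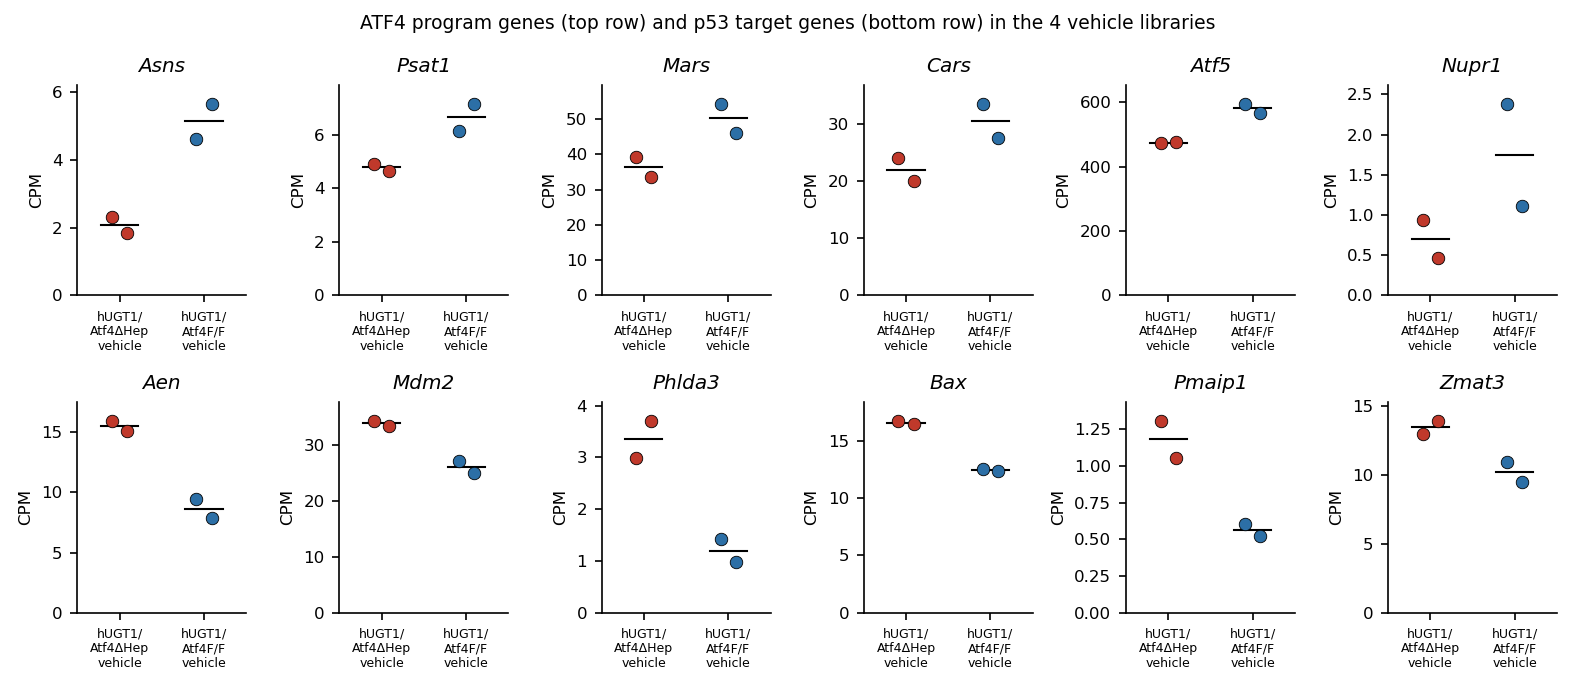
Levels in CPM of the 6 ATF4 program genes (top) and the 6 genes of the p53 list (bottom) with unadjusted p under 0.05, in the 4 vehicle libraries; each point is a library of 2 pooled mice, each line a group mean, and axes start at 0. The 12 genes were picked by that threshold, so their separation is no further evidence. Each separated the genotypes without overlap, program genes lower and p53 targets higher in hUGT1/Atf4ΔHep livers.

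No gene of the machinery upstream of ATF4 passed the test. Log2 fold changes of the 7 genes for eIF2α, its kinases and its phosphatase subunits lay within 0.08 of 0, and none had an unadjusted p under 0.05. Eif2ak3, the ER stress kinase PERK, stood at 20.6 and 21.2 CPM in hUGT1/Atf4ΔHep livers and 23.6 and 18.5 CPM in hUGT1/Atf4F/F livers, and Eif2ak4, the amino acid sensor GCN2, at 24.5 and 24.3 CPM against 21.0 and 26.3 CPM. Both overlapped. Of 27 bZIP relatives and partners, Jund (0.21) and Atf1 (0.23) were higher and Atf5 and Tef (-0.18) lower at unadjusted p under 0.05, where 1.3% of all genes tested were higher and 1.49% lower, with a median over the list of -0.02. Among 19 ER chaperones and folding factors, 16 lay above 0 with a median of 0.11. That median ranged from -0.01 to 0.25 when each vehicle library was left out. In the deletion comparison under TCS, 2 of them lay above 0 and 17 below, with a median of -0.05. The difference between these medians was not tested. Sdf2l1, an ER luminal protein, stood at 16.1 and 11.4 CPM in hUGT1/Atf4ΔHep livers and 8.16 and 10.2 CPM in hUGT1/Atf4F/F livers (0.60, SE 0.20). Herpud1, a component of ER-associated degradation, was lower at 153 and 141 CPM against 191 and 163 CPM (-0.27, SE 0.08).

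Targets of p53, the tumour suppressor that responds to DNA damage and other stresses, lay mostly above 0. This list, like the others here, was chosen with earlier results of these data known, so its counts are descriptive only. Of 15 targets, 14 were above 0 and 6 had an unadjusted p under 0.05 with a higher level, where 1.3% of all genes tested did. None passed the adjusted threshold (0.00734% of all genes did in this direction), and none was called by DESeq2. The groups did not overlap for 9 that were higher, where 15.3% of all genes tested were. They also did not overlap for the 1 that was lower (-0.38), where 14.9% were. The median was 0.37, and 0.29 to 0.47 when each vehicle library was left out. Trp53, which encodes p53, stood at 31.9 and 31.4 CPM in hUGT1/Atf4ΔHep livers and 30.1 and 34.3 CPM in hUGT1/Atf4F/F livers, with overlap.

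Aen, an apoptosis-enhancing nuclease, stood at 15.9 and 15.1 CPM in hUGT1/Atf4ΔHep livers and 9.43 and 7.88 CPM in hUGT1/Atf4F/F livers (0.84, SE 0.14, adjusted p = 0.659 by edgeR's quasi-likelihood test). Phlda3, an inhibitor of AKT signalling, stood at 2.99 and 3.71 CPM against 1.42 and 0.985 CPM (1.44, SE 0.33). Neither gene overlapped between genotypes. Mdm2, the ubiquitin ligase that restrains p53, was at 34.3 and 33.4 CPM in hUGT1/Atf4ΔHep livers and 27.2 and 25.0 CPM in hUGT1/Atf4F/F livers (0.37, SE 0.08). Bax, a pore-forming protein of apoptosis, was at 16.8 and 16.5 CPM against 12.6 and 12.4 CPM (0.41, SE 0.11), nearly identical within each genotype. Pmaip1 (NOXA; 1.04, SE 0.43) and Zmat3, an RNA-binding protein (0.39, SE 0.17), completed the 6. The cell cycle inhibitor Cdkn1a was at 35.1 and 33.2 CPM against 29.7 and 17.1 CPM, with one floxed liver near the deleted ones (0.53, SE 0.25). In a second list of 10 p53 targets drawn up after the values had been seen, the median was 0.03, with 7 above 0 and 3 below. The groups did not overlap for 3 that were higher and 2 that were lower, where 15.3% and 14.9% of all genes tested were. Rps27l (0.22, SE 0.08) and the death receptor Tnfrsf10b (1.06, SE 0.40) were higher at an unadjusted p under 0.05, where 1.3% of all genes tested were. When pool sex was added to the fit as a covariate, the first list had a median of 0.29.

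Among enzymes of detoxification, a list of aldo-keto reductases was drawn up after the values had been seen. Akr1c18, a steroid-reducing enzyme, was at 1.81 and 3.90 CPM in hUGT1/Atf4ΔHep livers and 0.456 and 0.263 CPM in hUGT1/Atf4F/F livers. It was low in both genotypes and several times higher in each deleted liver, with a log2 fold change of 2.91 (SE 0.54). It did not pass the adjusted threshold with edgeR's quasi-likelihood test, whereas DESeq2 gave an adjusted p of 0.00771. Akr1c19 stood at 11.7 and 8.07 CPM against 5.53 and 5.19 CPM (0.88, SE 0.21) and Akr1e1 at 37.3 and 39.4 CPM against 29.8 and 29.9 CPM (0.36, SE 0.08), both without overlap. Akr1c14 went the other way, at 232 and 227 CPM in hUGT1/Atf4ΔHep livers and 268 and 249.6 CPM in hUGT1/Atf4F/F livers (-0.17). Over the 14 aldo-keto reductases tested the median was 0.02, with 8 above 0 and 6 below. The Akr1c genes are close paralogs, and reads shared between them may have been split by the counting.

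The 28 tested targets of NRF2, the factor of the antioxidant response, had a median of 0.04. Ephx1, microsomal epoxide hydrolase, was the one with an unadjusted p under 0.05, at 142 and 169 CPM in hUGT1/Atf4ΔHep livers and 105 and 127 CPM in hUGT1/Atf4F/F livers (0.42, SE 0.12). Of all genes tested, 1.3% were higher at this threshold. Nqo1 stood at 10.2 and 10.8 CPM against 10.3 and 10.8 CPM and Gstm1 at 432 and 446 CPM against 394 and 439.7 CPM, with overlap and log2 fold changes of -0.0027 and 0.08. Their signs changed when single vehicle libraries were left out.

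Targets of PPARα, which drives fatty acid oxidation, lay mostly below 0, with 30 of 35 below, 14 of them without overlap, where 14.9% of all genes tested were lower without overlap. Their median was -0.08, and -0.14 to -0.03 when each vehicle library was left out, with -0.03 without replicate 1 of hUGT1/Atf4F/F. Cyp4a10, a fatty acid omega-hydroxylase, stood at 308 and 287 CPM in hUGT1/Atf4ΔHep livers and 459 and 339 CPM in hUGT1/Atf4F/F livers (-0.42, SE 0.19). Its relative Cyp4a14 was at 763 and 719 CPM against 984 and 861 CPM (-0.32, SE 0.17). Both were lower in each deleted liver, but the floxed livers also differed from each other, and without replicate 1 of hUGT1/Atf4F/F the difference in Cyp4a10 was -0.19. The 2 genes are close paralogs. Ehhadh, of peroxisomal beta-oxidation, was at 344 and 303 CPM in hUGT1/Atf4ΔHep livers and 363 and 333 CPM in hUGT1/Atf4F/F livers (-0.11). For targets of the xenobiotic receptors CAR and PXR, 14 of 19 lay below 0 with a median of -0.08, and Cyp2b10, the standard marker of CAR, overlapped at 10.8 and 13.8 CPM against 12.9 and 15.1 CPM.

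Core liver functions were near equal between the genotypes by the medians of their lists. Median log2 fold changes were 0.03 for the urea cycle, -0.02 for gluconeogenesis, 0.03 for amino acid breakdown, 0.06 for bile acid synthesis and transport, 0.01 for cholesterol synthesis and 0.02 for heme and bilirubin metabolism, with no member of these lists at an unadjusted p under 0.05. When each vehicle library was left out, the median ranged from -0.14 to 0.10 for gluconeogenesis and from -0.06 to 0.15 for cholesterol synthesis. Single members reached -0.46 in the former and 0.49 in the latter. The bile acid list did not hold Cyp39a1, which is described further below. In fatty acid synthesis the desaturase Fads2 was lower, at 513 and 526 CPM in hUGT1/Atf4ΔHep livers and 630.2 and 577 CPM in hUGT1/Atf4F/F livers (-0.22, SE 0.06), in a list whose median was 0.00. Mitochondrial aldehyde dehydrogenase Aldh2 stood at 1401 and 1332 CPM against 1197 and 1159 CPM (0.21, SE 0.07), and Mbl2, a complement-activating lectin, at 448 and 430.1 CPM against 365 and 321 CPM (0.36, SE 0.09). Both were higher in each deleted liver, and these 2 genes were singled out after their values had been seen.

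Acute phase genes lay mostly above 0 in the deleted livers, as did antigen presentation genes picked after the values had been seen. The acute phase list was itself chosen with earlier results of these data known. Of 18 acute phase genes, 16 were above 0, 12 of them without overlap (15.3% of all genes tested were higher without overlap) and 3 with unadjusted p under 0.05 (1.3% of all genes tested). The median was 0.16, and 0.09 to 0.21 when each vehicle library was left out. Lcn2, an iron-siderophore binding protein of hepatocytes and neutrophils, stood at 51.3 and 42.9 CPM in hUGT1/Atf4ΔHep livers and 22.7 and 30.2 CPM in hUGT1/Atf4F/F livers (0.84, SE 0.18). It did not pass the adjusted threshold with edgeR's quasi-likelihood test and did with DESeq2 (adjusted p = 0.0199). The serum amyloid genes Saa1, at 23.5 and 13.4 CPM against 7.05 and 6.30 CPM (1.46, SE 0.52), and Saa2, at 4.98 and 3.31 CPM against 1.98 and 1.25 CPM (1.33, SE 0.51), were higher in each deleted liver, with replicate 1 the higher of the deleted pair. With pool sex as a covariate their log2 fold changes were 0.50 for Saa1 and 0.60 for Saa2. These paralogs may share reads.

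In 2 lists drawn up after the values had been seen, 5 of 7 MHC class II genes (median 0.39) and 13 of 13 interferon-responsive genes (median 0.28) lay above 0. Of all genes tested, 49.5% did. The members were picked with their values known, so these counts describe the picked genes only. The medians were 0.30 to 0.48 for class II genes and 0.09 to 0.45 for interferon-responsive genes when each vehicle library was left out, the 0.09 without replicate 1 of hUGT1/Atf4ΔHep, and 0.21 and 0.12 with pool sex as a covariate. H2-Eb1, a class II beta chain, was at 13.3 and 14.7 CPM in hUGT1/Atf4ΔHep livers and 8.97 and 8.80 CPM in hUGT1/Atf4F/F livers (0.65, SE 0.12), and H2-Aa, an alpha chain, at 17.3 and 16.3 CPM against 11.6 and 10.2 CPM (0.62, SE 0.14). Gbp7, an interferon-induced GTPase, was at 38.8 and 38.4 CPM against 25.4 and 28.8 CPM (0.51, SE 0.13). All 3 separated the genotypes. Of 10 markers of Kupffer cells, the liver macrophages, 8 were above 0 and 1 was higher at an unadjusted p under 0.05, where 1.3% of all genes tested were. The median over these markers, 0.14, was -0.02 without replicate 1 of hUGT1/Atf4F/F and ranged up to 0.34 when the other vehicle libraries were left out. Their summed level was 669 and 744 CPM in hUGT1/Atf4ΔHep livers and 518 and 702 CPM in hUGT1/Atf4F/F livers, with overlap, and was lowest in replicate 1 of the floxed group. Cd5l, a macrophage product, was at 130.1 and 129 CPM against 78.4 and 112 CPM (0.44, SE 0.18), and the difference was 0.20 without that replicate. The part of macrophage content in the class II and acute phase differences was not tested.

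The deletion comparison in TCS-treated livers used 4 other libraries, and shared with the vehicle comparison only the fit. It also had 3 genes past the adjusted threshold (0.022% of genes tested; 0.00734% higher and 0.0147% lower), again Atf4, Rps19bp1 and Cacna1i. Atf4 stood at 17.5 and 17.4 CPM in hUGT1/Atf4ΔHep TCS livers and 58.6 and 59.8 CPM in hUGT1/Atf4F/F TCS livers (-1.76), Rps19bp1 at 2.25 and 1.46 CPM against 11.8 and 10.4 CPM (-2.67), and Cacna1i at 103 and 87.7 CPM against 0.966 and 0.343 CPM (7.18). The difference between the deletion effects under vehicle and TCS passed the adjusted threshold for no gene (edgeR's quasi-likelihood test of the interaction), with 297 genes at an unadjusted p under 0.05 (2.18%), and for none with DESeq2, with 93 such genes. For Atf4, Rps19bp1 and Cacna1i the difference between the effects was 0.09 (SE 0.11), 0.65 (SE 0.32) and -1.04 (SE 0.55) on the log2 scale.

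Across all genes tested the log2 fold changes of the 2 comparisons shared a sign for 53.9%. Of the 380 genes with unadjusted p under 0.05 under vehicle (2.79% of genes tested), 62.9% kept their sign under TCS, and 44 had an unadjusted p under 0.05 in both comparisons, 11.6% of the vehicle genes and 9.78% of the 450 genes under TCS (3.3% of genes tested). These 44 included Atf4, Rps19bp1 and Cacna1i, the program genes Asns, Psat1, Mars, Cars and Atf5, the p53 targets Aen, Mdm2, Phlda3, Bax, Zmat3, Rps27l and Tnfrsf10b, and Akr1c18, Akr1c19, Akr1e1, Ephx1, Aldh2 and Mbl2.

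Program genes lay below 0 for 41 of 61 under vehicle and for 48 of 61 under TCS, and 49.5% of all genes tested lay below 0 under TCS. At unadjusted p under 0.05, 6 were lower under vehicle and 15 under TCS, where 1.83% of all genes tested were, and the program's median was -0.11 under vehicle and -0.10 under TCS. Asns had a log2 fold change of -1.29 under vehicle and -1.59 under TCS, Psat1 of -0.47 and -0.68, Mars of -0.46 and -0.51, and Atf5 of -0.29 and -0.43. For Ddit3 the values were 0.07 under vehicle and -0.60 under TCS, and for Chac1 0.04 and -1.01, but their interactions did not pass the test (0.66, SE 0.29, and 1.05, SE 0.54). For p53 targets the median was 0.37 under vehicle and 0.52 under TCS, with Aen at 0.84 and 0.73. Akr1c18 stood at 6.06 and 6.45 CPM in hUGT1/Atf4ΔHep TCS livers and 0.664 and 0.286 CPM in hUGT1/Atf4F/F TCS livers (3.72).

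Medians of the acute phase and antigen presentation lists were closer to 0 under TCS. Acute phase genes had a median of 0.16 with 16 of 18 above 0 under vehicle, and 0.00 with 9 of 18 above under TCS. MHC class II genes had 5 of 7 above 0 under both treatments, with a median of 0.39 under vehicle and 0.06 under TCS. Interferon-responsive genes had a median of 0.28 with 13 of 13 above 0 under vehicle, and -0.02 with 5 of 13 above under TCS. The differences between these medians were not tested. The MHC class II and interferon lists were drawn up after the values had been seen. Lcn2 was at 20.8 and 22.1 CPM in hUGT1/Atf4ΔHep TCS livers and 19.4 and 27.6 CPM in hUGT1/Atf4F/F TCS livers, and H2-Eb1 at 10.2 and 9.21 CPM against 9.48 and 9.67 CPM, both overlapping. Their interactions, 0.97 (SE 0.26) and 0.64 (SE 0.18), did not pass adjustment.

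**Figure D5:**
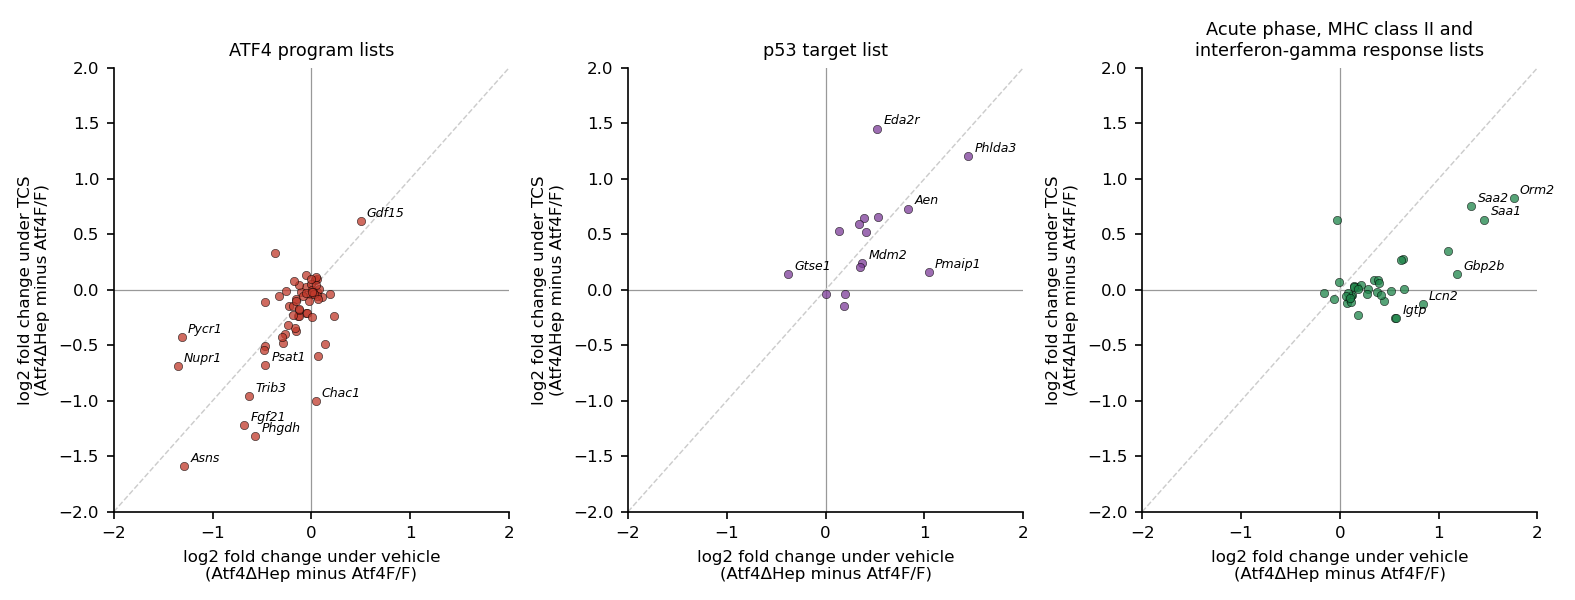
Log2 fold change of the deletion under vehicle (x axis) against that under TCS (y axis) for the ATF4 program lists, the p53 target list and the acute phase, MHC class II and interferon-gamma response lists; each point is a gene and the dashed line marks equal values. Asns lay at -1.29 under vehicle and -1.59 under TCS and Aen at 0.84 and 0.73, whereas Lcn2 lay at 0.84 and -0.13.

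The largest log2 differences below 0 among named genes with unadjusted p under 0.05 and no overlap all belonged to striated muscle. The 15 furthest below 0, among them the myosins Myh7, Myh1 and Myh2, the actin Acta1, titin (Ttn) and the calcium pump Atp2a1, had log2 fold changes from -5.52 to -3.83. Myh7 stood at 0.312 and 0.331 CPM in hUGT1/Atf4ΔHep livers and 15.6 and 1.25 CPM in hUGT1/Atf4F/F livers, and at 0.173 and 12.1 CPM in hUGT1/Atf4ΔHep TCS livers against 3.74 and 8.64 CPM in hUGT1/Atf4F/F TCS livers. The gene was thus high in libraries of both genotypes. All 12 genes of the striated muscle list lay below 0 under vehicle (median -3.98), and 7 of 12 lay above 0 under TCS. The troponin Tnnt2, which is not in that list, went the other way. It stood at 1.43 and 0.728 CPM in hUGT1/Atf4ΔHep vehicle livers and 0.304 and 0.197 CPM in hUGT1/Atf4F/F vehicle livers (2.05, SE 0.63), and its log2 fold change under TCS was -1.69. None of the 15 passed the adjusted threshold. Without replicate 1 of the hUGT1/Atf4F/F vehicle group their log2 fold changes were smaller, from -4.07 to -1.70, and none passed the adjusted threshold. The 5 squamous epithelium genes tested, of a list of 9 drawn up after the values had been seen, also all lay below 0 (median -1.93), with a median of 0.25 without that replicate.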

How the data were processed

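Mouse liver mRNA was sequenced with a stranded kit in 8 libraries, 2 per group, each a pool of 2 mice. Per the submitters' processing notes, bcl2fastq 2.20 and STAR 2.7.9a were used with mm10. Which counter and gene annotation were used: not given in the sources used here. Raw read counts per gene, as the authors deposited them, were analysed; the deposit also holds scaled counts and tables of log2 fold changes and p-values from the authors' own comparisons, which were not used. No column of per-sample values was left unmapped (0 columns). Groups came from the sample titles.

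Counts of all 8 libraries were filtered (filterByExpr, minimum count 10, total 15), scaled by TMM and fitted with 1 mean per group in edgeR 4.0.16 (R 4.3.3). The quasi-likelihood test was applied with Benjamini-Hochberg adjustment over 13633 genes, with 4 residual degrees of freedom and calls at adjusted p under 0.05. Totals per library ran from 11624143 to 25573210. Genes could be named if called, if the study drew or measured them, if in the ATF4 program, or if among the 5 neighbours on each side of Atf4. Others could be named if among up to 4 members of a list with the smallest p, or among the 15 largest rises or falls. Those rises and falls needed 1 CPM or more on average in the group with more, unadjusted p under 0.05 and no overlap, with predicted genes left out. Not every such gene was named. Lnx1, Slc52a3, Ltb4r2, Gbp2b, Strip2, Prune2 and Treml2 were among the 15 largest rises and are not described above. Genes said to be singled out were chosen after their values were seen. The members and lists were chosen with earlier results of these data known, and 7 lists were added after the values had been seen (striated muscle, stomach mucosa, squamous epithelium, MHC class II, interferon response, aldo-keto reductases and further p53 targets). They are described by counts and medians, without a test. Unadjusted p-values rest on 2 pools a group and are used only to count genes and to choose which to name or mark. Alternatives were a replicate block, RLE size factors, no filter, the vehicle libraries alone, DESeq2 1.42.0, limma-voom (limma 3.58.1), an earlier quasi-likelihood method, a covariate for sex makeup, a threshold of 0.01 and leaving out each library. Scripts were tested on simulated data.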

Additional observations from a re-analysis of the deposited data

How the results depend on the processing

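Atf4 and Cacna1i passed the adjusted threshold in every alternative run. The number of genes called was 3, and 5 with DESeq2 (Akr1c18 and Lcn2 were added), 8 with a covariate for the sex makeup, and 2 to 14 when each of the 8 libraries was left out. The 14, found without replicate 2 of hUGT1/Atf4F/F vehicle, were Atf4, Rps19bp1, Cacna1i and 11 others, among them the stomach genes Tff1, Tff2, Gkn2, Gkn3, Muc6 and Pgc, and among the 8 were the epithelial genes Krt4, Krt13 and Lor. It was 2 with the vehicle libraries alone and with limma-voom, where Rps19bp1 was lost (adjusted p = 0.0534 and 0.0544), as it was with the sex covariate (adjusted p = 0.0996). The cause was not tested. Signs changed for Atf3 (-1.07 to 0.12 when each vehicle library was left out), Chac1 (-0.40 to 0.37, and -0.055 with the sex covariate), Ddit3 (-0.082 to 0.23), Gstm1 (-0.0031 to 0.16) and Nqo1 (-0.042 to 0.037, and 0.16 with the sex covariate). The interaction had 0 calls in each alternative run for it.

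With the replicate number as a block, 3 genes were called and 356 had an unadjusted p under 0.05, against 380 without it. Deviations of same-numbered libraries correlated at 0.34 between the vehicle groups and at 0.37 between the TCS groups. Between groups of different treatment they correlated at -0.43 to -0.11. With 2 libraries per group these values cannot decide whether the numbers pair the samples. The block changed no other call. Among genes with few reads, Pycr1 had a standard error of 0.83 on the log2 scale, against 0.06 for Atf5. With the sex covariate the log2 fold changes of several genes were smaller by over 1.5 times, among them Gdf15 (0.24), Cdkn1a (0.29), Pmaip1 (0.69), Tnfrsf10b (0.66), Trib3 (-0.35) and Pycr1 (-0.83). Those of others were larger by over 1.5 times, among them Phgdh (-0.92), Nupr1 (-2.13), Cyp4a14 (-0.53) and Ehhadh (-0.30).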

Other observations

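Outside the groups described above, 4 genes were singled out, after their values were seen, from the 44 with unadjusted p under 0.05 in the deletion comparison under both treatments (0.323% of genes tested). Cyp39a1, an oxysterol hydroxylase of bile acid synthesis, stood at 56.8 and 36.9 CPM in hUGT1/Atf4ΔHep vehicle livers and 74.3 and 59.3 CPM in hUGT1/Atf4F/F vehicle livers, lower in each deleted liver (-0.51 on the log2 scale under vehicle and -0.70 under TCS). Cyp2g1 stood at 11.1 and 8.01 CPM against 7.10 and 5.71 CPM (0.57 and 0.76), and Cyp3a44, which has close paralogs, at 213 and 180.2 CPM against 139.7 and 142 CPM (0.48 and 0.54, and 0.23 under vehicle with pool sex as a covariate). Both were higher in each deleted liver. Pgpep1, a peptidase, stood at 76.4 and 72.9 CPM against 67.1 and 60.0 CPM (0.23 and 0.30). None of these 4 passed the adjusted threshold.

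Of the 44 genes with unadjusted p under 0.05 in both comparisons, 40 shared a sign, 25 higher and 15 lower in hUGT1/Atf4ΔHep livers, and 4 had opposite signs. Sirt1, a NAD-dependent deacetylase, was at 9.10 and 10.6 CPM in hUGT1/Atf4ΔHep vehicle livers and 12.5 and 12.2 CPM in hUGT1/Atf4F/F vehicle livers, and at 14.2 and 13.5 CPM in hUGT1/Atf4ΔHep TCS livers against 10.9 and 10.7 CPM in hUGT1/Atf4F/F TCS livers. It was lower with deletion under vehicle and higher under TCS (difference between the effects -0.68, SE 0.17). Sox17, an endothelial transcription factor, was at 7.41 and 6.42 CPM against 5.07 and 5.19 CPM under vehicle and 5.54 and 5.33 CPM against 7.25 and 6.69 CPM under TCS. Elp5 (0.21 under vehicle and -0.22 under TCS) and the troponin Tnnt2 (2.05 and -1.69) were the others. None of these interactions passed adjustment with edgeR's quasi-likelihood test.

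Proliferation genes lay below 0 for 16 of 20 (median -0.07), but the median ranged from -0.28 to 0.16 when each vehicle library was left out. Fetal liver genes were as uneven, with a median of 0.11 and a range of -0.25 to 0.24. Afp, the fetal counterpart of albumin, stood at 29.5 and 88.9 CPM in hUGT1/Atf4ΔHep vehicle livers and 48.5 and 93.0 CPM in hUGT1/Atf4F/F vehicle livers, high in replicate 2 of each genotype.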
